A study of Mus musculus with 9 samples.

Results

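Pipox, Nell1, Alk, Cnr1, Mycn, Abat and Nos1 are 7 mouse genes chosen by name. Their human counterparts are known as genes bound or raised by the PAX3-FOXO1 fusion protein in alveolar rhabdomyosarcoma. The choice was made with earlier results of these data known, so that shares and medians set beside all genes are descriptions only. All 7 were on the arrays, through 15 of the 45037 probe sets tested, among 18193 genes that could be named. RNA came from cells of E10.5 mouse forelimb buds sorted by GFP and hybridised to Affymetrix Mouse430_2 arrays, with 3 groups of 3 arrays. The PAX3-FKHR GFP+ cells were from Pax3PAX3-FKHR/GFP embryos, which carry PAX3-FKHR (FKHR is the older name of FOXO1) in 1 Pax3 allele and GFP in the other. Control GFP+ cells were from Pax3GFP/+ embryos, with GFP in 1 Pax3 allele and 1 normal Pax3 allele. GFP- cells were the cells of the limb bud without GFP. The labels give no genotype for them; the methods compare them with GFP+ cells of Pax3GFP/+ embryos, but also list Pax3+/+ as an array group, so that their genotype is likely Pax3GFP/+ and not settled. PAX3-FKHR was transcribed from the Pax3 locus after removal of a blocking cassette by PGK-Cre, and both GFP+ groups carried the Pax3GFP allele. The PAX3-FKHR embryos have no normal Pax3 allele, so that gain of the fusion and loss of normal Pax3 cannot be told apart in their comparison with controls. Embryos of a genotype were pooled, and p-values measure the spread between such pools.

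PAX3-FOXO1 joins the DNA-binding domains of PAX3, a paired domain and a homeodomain, to the activation domain of the forkhead factor FOXO1. It is made by a chromosome translocation in alveolar rhabdomyosarcoma, a childhood tumour with features of skeletal muscle, and it acts as a strong activator at sites that PAX3 can recognise. In the limb bud, Pax3 marks the muscle progenitors that have migrated in from the somites. The 7 genes have unlike roles. Pipox is a peroxisomal oxidase of pipecolate and sarcosine, Abat degrades the transmitter GABA, and Nos1 makes nitric oxide. Nell1 is a secreted glycoprotein, Alk a receptor tyrosine kinase, Cnr1 the cannabinoid receptor of the nervous system, and Mycn a transcription factor of the Myc family.

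The promoter sequences of Pipox, Nell1 and Cnr1 are shown because these 3 genes had the largest differences between PAX3-FKHR GFP+ and control GFP+ cells. Each is the 300 bases around a RefSeq transcription start (GRCm38.p6), read 5′ to 3′ on the strand of the gene. Capitals mark ATTA, the core that a PAX homeodomain recognises, and GTCAC, from the core of paired-domain sites, on either strand (TAAT and GTGAC on the other). The Pipox window lies at chr11:77893823-77894122 on the minus strand, the Nell1 window at chr7:49975100-49975399 on the plus strand. The Cnr1 window, the one with most matches of 3 for that gene, lies at chr4:33926130-33926429 on the plus strand.
Pipox: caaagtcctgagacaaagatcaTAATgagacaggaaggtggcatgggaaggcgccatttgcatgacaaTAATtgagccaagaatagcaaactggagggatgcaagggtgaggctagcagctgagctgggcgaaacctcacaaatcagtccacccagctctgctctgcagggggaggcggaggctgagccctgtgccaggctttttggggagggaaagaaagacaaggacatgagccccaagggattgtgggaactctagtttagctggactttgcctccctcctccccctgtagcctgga
Nell1: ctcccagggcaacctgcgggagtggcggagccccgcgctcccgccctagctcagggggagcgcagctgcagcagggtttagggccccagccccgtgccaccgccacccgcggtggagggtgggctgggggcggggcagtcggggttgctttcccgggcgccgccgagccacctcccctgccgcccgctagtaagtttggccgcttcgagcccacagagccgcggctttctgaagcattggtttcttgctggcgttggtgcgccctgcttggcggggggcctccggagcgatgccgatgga
Cnr1: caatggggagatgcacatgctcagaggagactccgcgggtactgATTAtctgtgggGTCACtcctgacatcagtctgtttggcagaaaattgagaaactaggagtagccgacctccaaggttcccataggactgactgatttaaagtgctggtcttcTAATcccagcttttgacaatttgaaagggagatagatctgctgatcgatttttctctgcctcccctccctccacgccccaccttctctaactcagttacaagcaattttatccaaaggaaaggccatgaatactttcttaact
Pipox held 2 ATTA and no GTCAC, Nell1 held neither, and this Cnr1 window held 2 ATTA and 1 GTCAC. Over all 32851 promoter windows of the same length, 58% held ATTA, 45.6% held GTCAC and 26.3% held both. Of the other members, Mycn held 2 ATTA and 1 GTCAC, Nos1 1 and 2, and Alk 0 and 1. The matches describe these windows only. Abat is not shown.

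In the main fit, with no term for replicate number, Pipox alone of the 7 was called higher in PAX3-FKHR GFP+ than control GFP+ cells. It had 1 probe set, so that no other probe set could serve as a check. Its log2 values were 6.45, 6.13 and 6.70 in PAX3-FKHR GFP+ cells, 4.58, 4.65 and 4.20 in control GFP+ cells, and 3.82, 3.86 and 3.99 in GFP- cells. Values are on the log2 scale made by RMA, on which 1 unit is a doubling. All control GFP+ and GFP- values of Pipox lay under the median of all values, 5.11. Its GFP- values were near the lower quartile, 3.69. No array of one group overlapped those of another. Pipox was 3.86-fold higher in PAX3-FKHR GFP+ than in control GFP+ cells, a log2 fold change of 1.95 with a standard error of 0.17 and an adjusted p of 0.000643 by limma, Benjamini-Hochberg adjusted over all probe sets. A gene was called where the adjusted p was under 0.05 and the log2 fold change at least 0.5 in size. By that rule 0.61% of the 18193 genes were called higher in PAX3-FKHR GFP+ cells and 0.203% lower, against 1 and 0 of the 7 members. Pipox also rose 5.81-fold over GFP- cells, a log2 fold change of 2.54 with an adjusted p of 1.5e-05. The order of its levels was PAX3-FKHR GFP+, control GFP+, GFP-, but the last step, 0.59 between control GFP+ and GFP- cells, did not pass (95% interval 0.22 to 0.96, adjusted p = 0.0668). It did pass without control GFP+ replicate 3, at 0.73 with an adjusted p of 0.0300, where the range over all alternatives was 0.00885 to 0.175. Pipox stands in a list of genes that the study chose on these arrays, so its inclusion there is not independent evidence of its direction. In sorted pools, more cells that express a gene and more RNA of it per cell cannot be told apart.

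**Figure D1:**
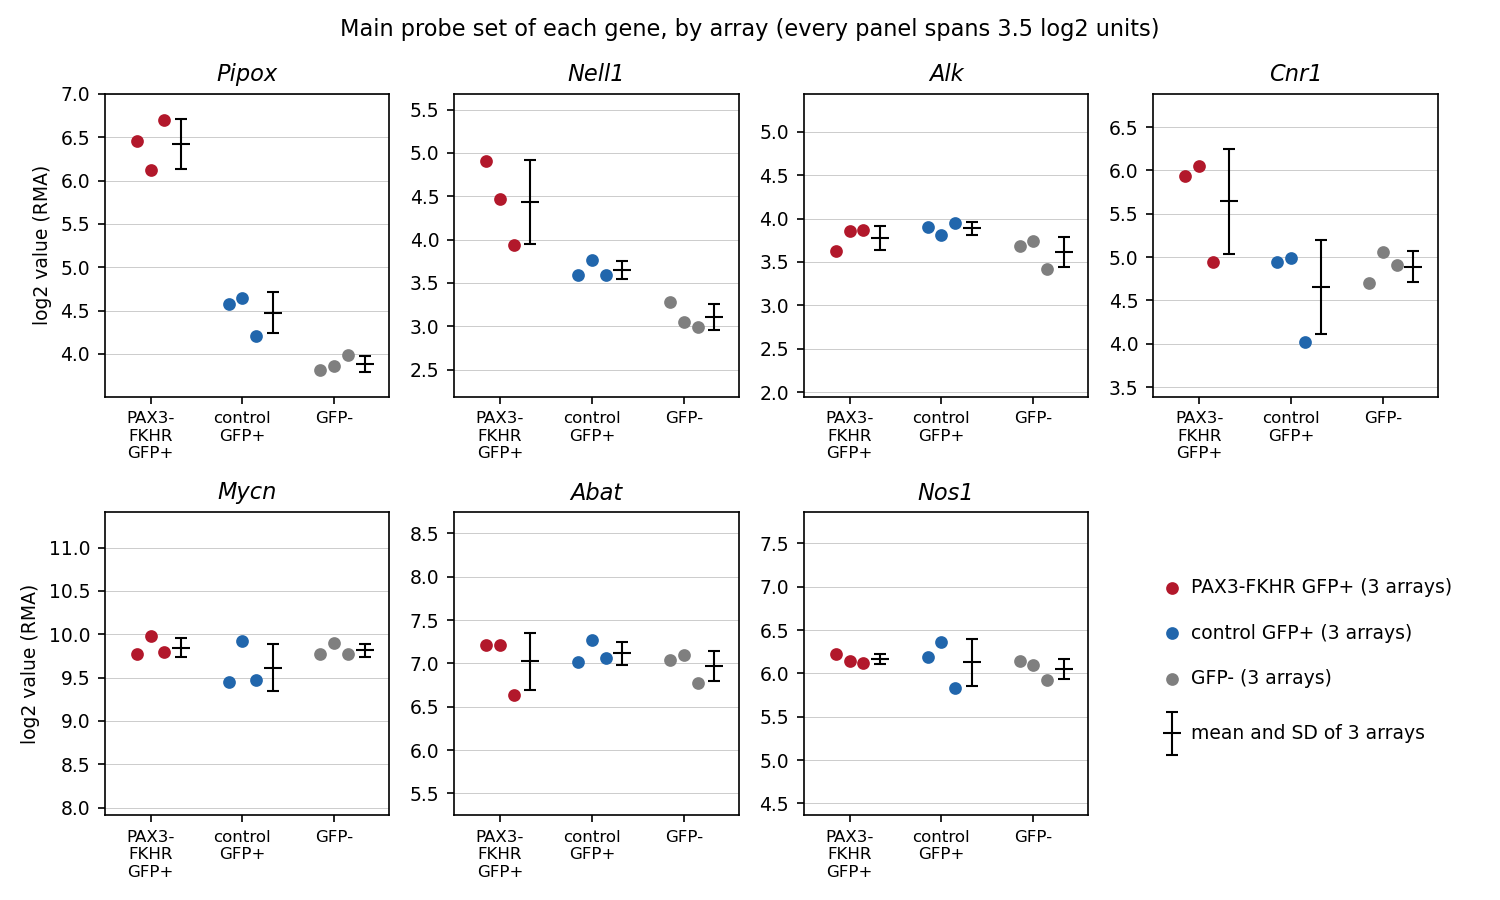
Log2 values of the main probe set of each gene on the 9 arrays, 3 per group, with the mean and SD beside them; every panel spans 3.5 log2 units. Pipox in PAX3-FKHR GFP+ cells lies between 6.13 and 6.70, above every other array, while Mycn, Abat, Nos1 and Alk lie close together in all 3 groups.

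Nell1 was highest in PAX3-FKHR GFP+ cells and lowest in GFP- cells. The values of its brighter probe set were 4.90, 4.46 and 3.94 in PAX3-FKHR GFP+ cells, 3.59, 3.77 and 3.60 in control GFP+ cells, and 3.28, 3.04 and 2.99 in GFP- cells. As for Pipox, the 3 groups did not overlap, but the PAX3-FKHR GFP+ arrays were spread over nearly 1 log2 unit. Nell1 rose 2.51-fold in PAX3-FKHR GFP+ over GFP- cells (log2 fold change 1.33, SE 0.20, adjusted p = 0.00296). Its 2 smaller steps did not pass. PAX3-FKHR GFP+ differed from control GFP+ cells by 0.79 (95% interval 0.34 to 1.23, adjusted p = 0.207), and control GFP+ from GFP- cells by 0.54 (0.10 to 0.99, adjusted p = 0.147). The first of these passed without PAX3-FKHR GFP+ replicate 3, at 1.03 with an adjusted p of 0.0323, where the range over all alternatives was 0.00558 to 0.498. The second probe set of Nell1 read between 2.69 and 3.06 on every array and differed by -0.09 between PAX3-FKHR GFP+ and control GFP+ cells and by 0.14 between PAX3-FKHR GFP+ and GFP- cells, with adjusted p of 0.834 and 0.335. On all 9 arrays both Nell1 probe sets read under the median of all values, 5.11. Every value of the second probe set lay under the lower quartile, 3.69. So did the GFP- arrays and control GFP+ replicates 1 and 3 of the brighter one.

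Cnr1 had the second largest difference between PAX3-FKHR GFP+ and control GFP+ cells but the widest spread. Its main probe set read 5.93, 6.05 and 4.95 in PAX3-FKHR GFP+ cells, 4.95, 4.99 and 4.02 in control GFP+ cells, and 4.70, 5.06 and 4.90 in GFP- cells. Replicate 3 was the low array of both GFP+ groups, and the groups met at 4.95. The log2 fold change of 0.99 (95% interval 0.29 to 1.69) had an adjusted p of 0.423. Replicate numbers of these 2 groups deviated together over all probe sets, and arrays of the same number gave Cnr1 differences of 0.99, 1.06 and 0.92, an SD of 0.070. Blocked by replicate number, a fit to these 6 arrays called Cnr1, with a standard error of 0.13 and an adjusted p of 0.0146. With the block on all 9 arrays Cnr1 was not called, at an adjusted p of 0.165. That block also took in the GFP- arrays, whose same-numbered deviations gave no basis for pairing (correlations of -0.29 to 0.15). Over all alternatives the adjusted p of Cnr1 ran from 0.0114 to 0.979. The alternative with array weights gave control GFP+ replicate 3 a weight of 0.24, the lowest of the 9 arrays. Cnr1 then differed by 0.78 and was not called (adjusted p = 0.253). The differences of Pipox by replicate number were 1.87, 1.48 and 2.50, and those of Nell1 were 1.32, 0.70 and 0.34. The means of some cell type marker lists were also lowest in replicate 3 of both GFP+ groups. The mean log2 value of 6 neural crest markers was 7.51 there in PAX3-FKHR GFP+ cells, whose other 2 arrays had 7.78 and 8.18, and 7.16 in control GFP+ cells, whose other 2 had 7.87 and 8.28. Means of 9 blood and macrophage markers were 5.81 against 6.59 and 7.43 in PAX3-FKHR GFP+ cells, and 5.68 against 6.53 and 7.34 in control GFP+ cells. The part of these cell types in the Cnr1 values was not tested. Against GFP- cells, Cnr1 in PAX3-FKHR GFP+ cells differed by 0.76 (0.06 to 1.46, adjusted p = 0.208) and in control GFP+ cells by -0.24 (-0.94 to 0.46, adjusted p = 0.698). The second Cnr1 probe set differed by 0.09 between PAX3-FKHR GFP+ and control GFP+ cells, with an adjusted p of 0.894.

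**Figure D2:**
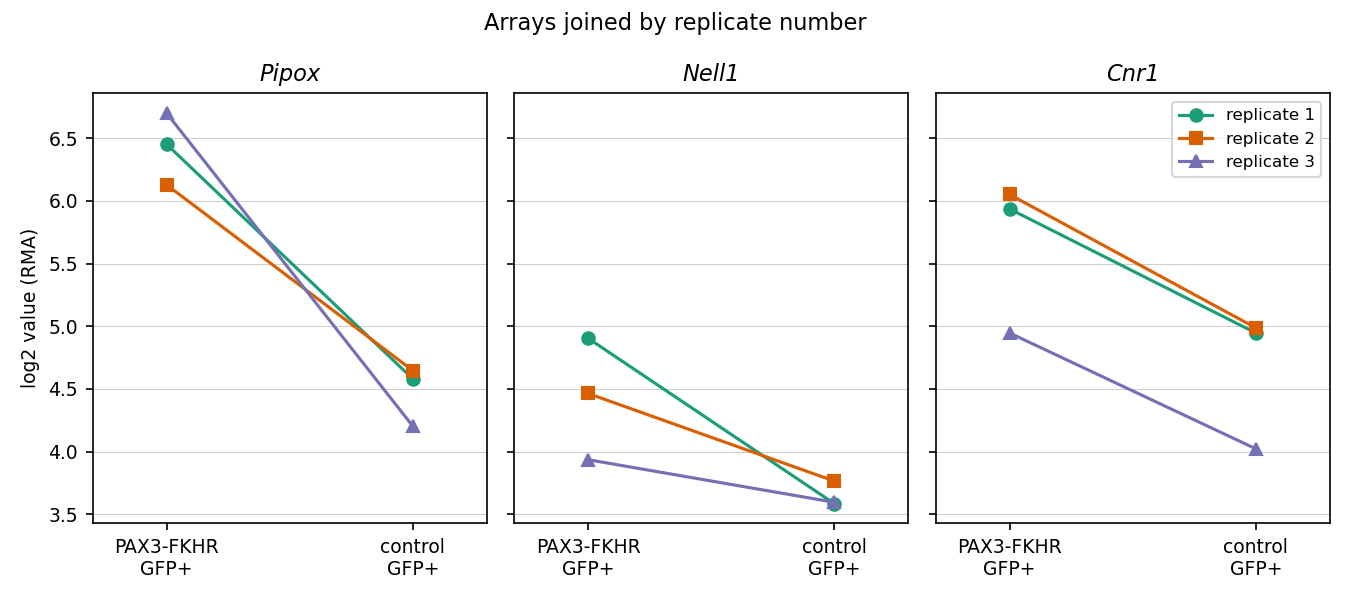
Log2 values of Pipox, Nell1 and Cnr1 in PAX3-FKHR GFP+ (left) and control GFP+ cells (right), with arrays of the same replicate number joined. The 3 Cnr1 lines run in parallel, with differences of 0.99, 1.06 and 0.92, and replicate 3 lies about 1 unit below the others in both groups.

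Mycn, Alk, Abat and Nos1 passed the test in no comparison. Mycn read 9.77, 9.98 and 9.79 in PAX3-FKHR GFP+ cells, 9.45, 9.93 and 9.47 in control GFP+ cells, and 9.77, 9.90 and 9.77 in GFP- cells. On this main probe set Mycn lay far above the median of all values on every array, and the 3 groups overlapped. The Mycn difference between PAX3-FKHR GFP+ and control GFP+ cells was 0.23 (95% interval -0.10 to 0.56, adjusted p = 0.794). Its 2 other probe sets differed by -0.02 and -0.09. On the brighter of these, both GFP+ groups lay wholly above GFP- cells, and neither was called. The differences were 0.22 in PAX3-FKHR GFP+ and 0.25 in control GFP+ cells (adjusted p = 0.335 and 0.264).

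Alk had 1 probe set, with values of 3.62, 3.85 and 3.87 in PAX3-FKHR GFP+ cells, 3.91, 3.81 and 3.95 in control GFP+ cells, and 3.68, 3.74 and 3.42 in GFP- cells. All 9 were near the lower quartile of all values, 3.69. PAX3-FKHR GFP+ cells differed from control GFP+ cells by -0.11 (-0.35 to 0.14, adjusted p = 0.855). The control GFP+ arrays all lay above the GFP- arrays, yet the difference of 0.27 did not pass (0.03 to 0.52, adjusted p = 0.184).

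Abat read 7.22, 7.21 and 6.64 in PAX3-FKHR GFP+ cells, 7.02, 7.27 and 7.06 in control GFP+ cells, and 7.04, 7.10 and 6.77 in GFP- cells. Nos1 read 6.23, 6.14 and 6.13 in PAX3-FKHR GFP+ cells, 6.20, 6.36 and 5.83 in control GFP+ cells, and 6.14, 6.09 and 5.93 in GFP- cells. On these main probe sets the groups of both genes overlapped throughout. Between PAX3-FKHR GFP+ and control GFP+ cells, Abat differed by -0.09 (-0.50 to 0.32, adjusted p = 0.933) and Nos1 by 0.04 (-0.30 to 0.38, adjusted p = 0.972). The second Abat probe set and the 3 other Nos1 probe sets differed by -0.25 to 0.04 in the same comparison, and none was called. On the second brightest Nos1 probe set, control GFP+ cells lay wholly above GFP- cells, by 0.36, but were not called (adjusted p = 0.145).

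**Figure D3:**
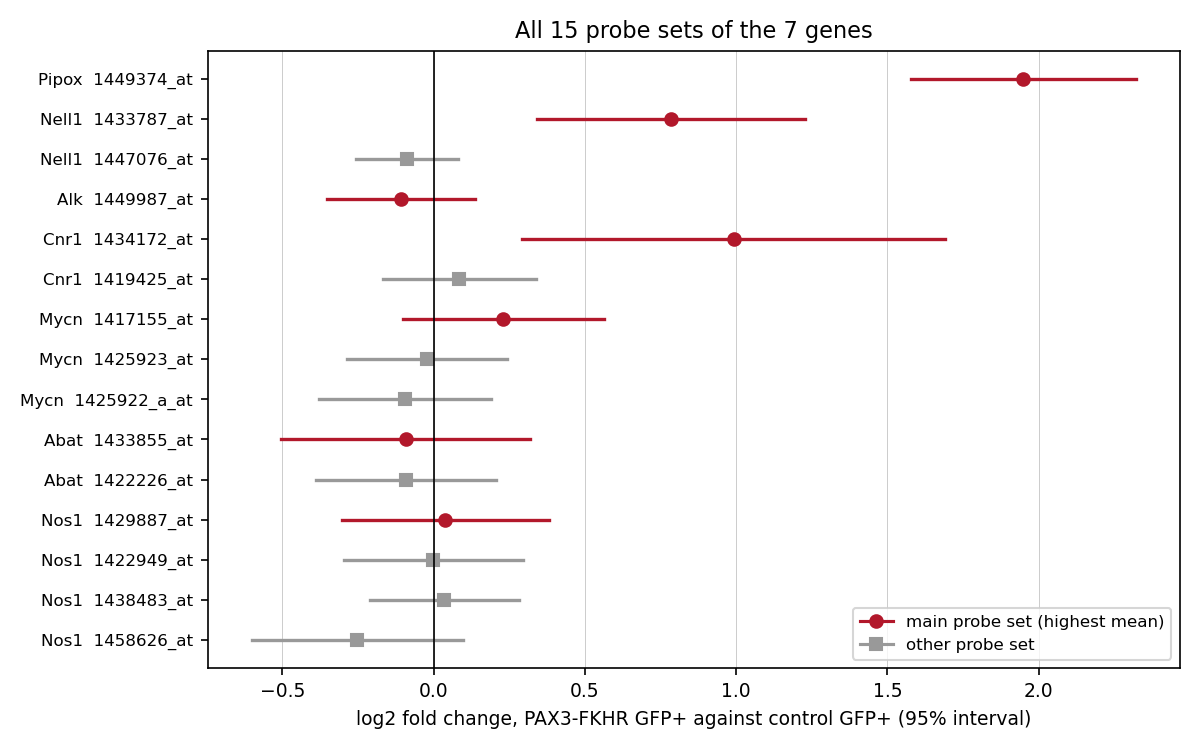
Log2 fold change with its 95% interval between PAX3-FKHR GFP+ and control GFP+ cells for the 15 probe sets of the 7 genes, main probe sets as red circles and the others as grey squares. Pipox stands at 1.95, and the second probe sets of Nell1 and Cnr1 lie at -0.09 and 0.09, away from the main ones.

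Counts and medians over genes are by main probe set. Over the 7 genes the median log2 fold change between PAX3-FKHR GFP+ and control GFP+ cells was 0.23, beside -0.03 over all genes. The PAX3-FKHR GFP+ arrays lay wholly above the control GFP+ arrays for 2 members, Pipox and Nell1, and for 5.42% of all genes. Between control GFP+ and GFP- cells no member was called, where 2.79% of all genes were called higher and 1.93% lower; 3 members, Pipox, Nell1 and Alk, did not overlap with the control arrays above, as did 17.2% of all genes. The members' median was 0.14, beside 0.08 over all genes. In PAX3-FKHR GFP+ against GFP- cells, Pipox and Nell1 were called higher and no member lower, where 3.9% of all genes were called higher and 2.79% lower. The same 2 members lay wholly above, as did 17.8% of all genes, and the medians were 0.17 and 0.05. The 3 comparisons share arrays and are not independent of each other. The members were chosen with earlier results of these data known, so that these shares and medians are no test of the set.

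**Figure D4:**
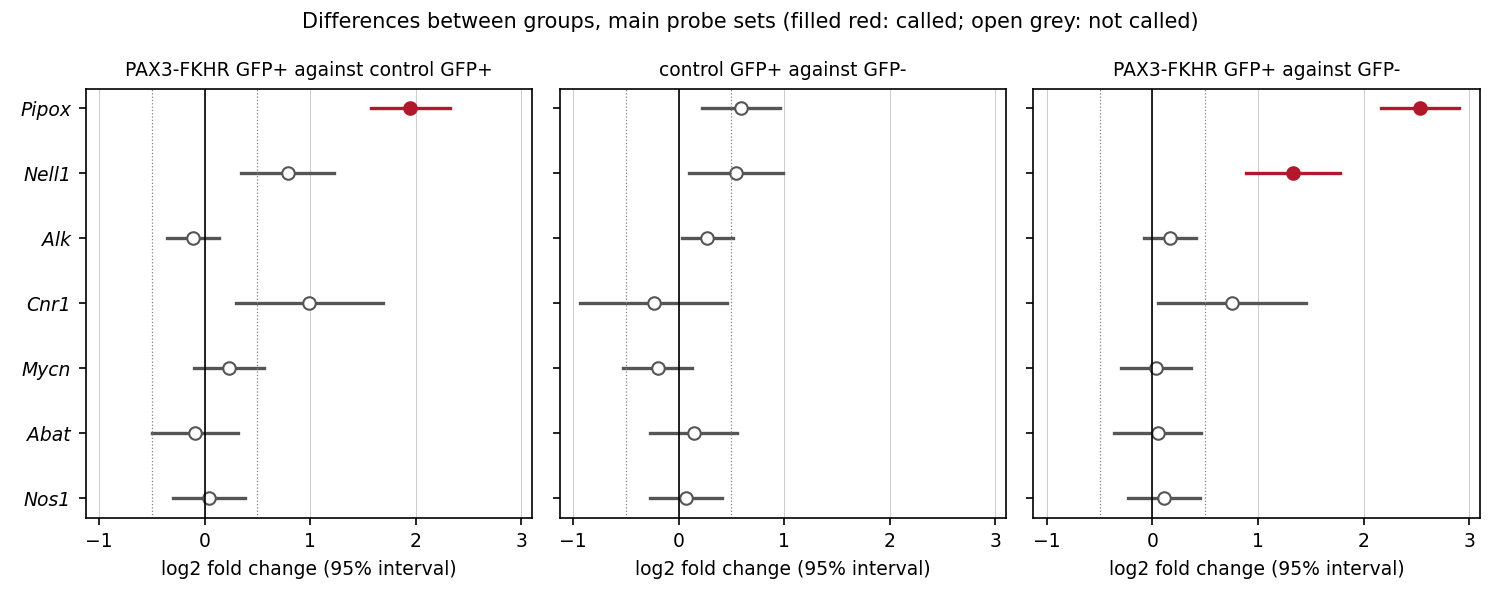
Log2 fold change (point) and 95% interval (line) of the 7 genes in the 3 comparisons; filled red points were called, open grey points were not, and dotted lines mark the threshold of 0.5. In the main fit, which held no term for replicate number, only Pipox was called in PAX3-FKHR GFP+ against control GFP+ cells. No member was called in control GFP+ against GFP- cells, and Pipox and Nell1 were called in PAX3-FKHR GFP+ against GFP- cells.

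Pipox degrades pipecolate, and 6 of 7 listed enzymes of pipecolate and sarcosine metabolism were measured beside it. Crym, the mu-crystallin that reduces ketimines to pipecolate and also binds thyroid hormone, fell in PAX3-FKHR GFP+ cells. Its values were 6.44, 6.51 and 6.51 in PAX3-FKHR GFP+ cells, 7.84, 7.80 and 8.71 in control GFP+ cells, and 3.95, 4.34 and 4.61 in GFP- cells. No array of one group overlapped those of another, and Crym lay between the levels of the other groups in PAX3-FKHR GFP+ cells, where Pipox was highest. The log2 fold change was -1.63 against control GFP+ cells (SE 0.25, adjusted p = 0.0182) and 2.19 against GFP- cells (adjusted p = 0.000561), and control GFP+ cells were 3.81 above GFP- cells (adjusted p = 2.92e-05). The fall against control GFP+ cells lost its call without PAX3-FKHR GFP+ replicate 1, 2 or 3, at adjusted p of 0.0852, 0.0861 and 0.0773, while its size over all 6 single omissions stayed between -1.79 and -1.33. Aass, which starts lysine breakdown along the saccharopine branch, was lower in both GFP+ groups than in GFP- cells, with log2 fold changes of -1.23 in PAX3-FKHR GFP+ cells and -1.44 in control GFP+ cells (adjusted p = 0.000474 and 0.000293). No other enzyme of the list was called.

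**Figure D5:**
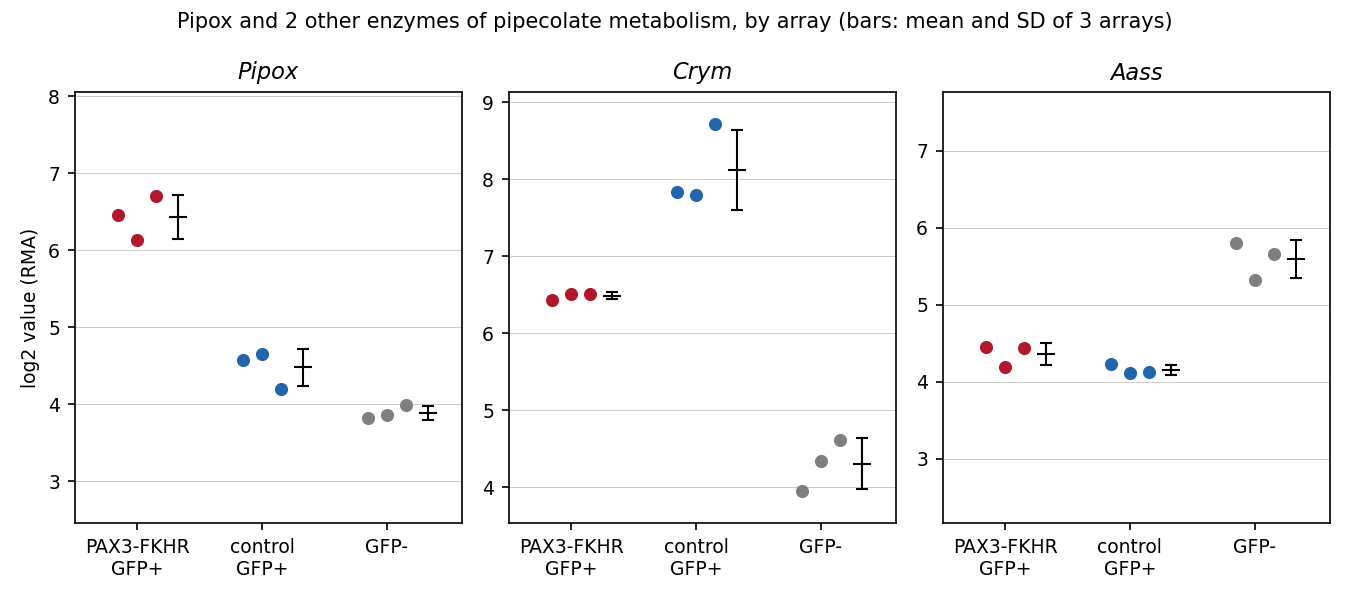
Log2 values of Pipox, Crym and Aass on the 9 arrays with the mean and SD of each group; every panel spans the same number of log2 units. Crym in PAX3-FKHR GFP+ cells lies between 6.44 and 6.51, under the control GFP+ arrays and over the GFP- arrays, and Aass is highest in GFP- cells.

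Listed partners of the other members were measured too, and none of them was called between PAX3-FKHR GFP+ and control GFP+ cells. This held for 6 genes of GABA metabolism and transport, 9 of the endocannabinoid pathway, 5 of the ALK family and its ligands, 10 of the Myc and Max network, 12 genes known to be raised by Myc proteins, 10 of the nitric oxide pathway and 4 NEL proteins and receptors. The 95% intervals of Prkg1 (0.98, 0.44 to 1.52), Dmd (0.59, 0.10 to 1.08) and Mycl (0.47, 0.15 to 0.78) lay above 0 in that comparison. Those of Myc (-0.87, -1.29 to -0.44), Ddah1 (-0.55, -0.89 to -0.22), Shc1 (-0.40, -0.70 to -0.09) and Mdk (-0.20, -0.37 to -0.03) lay below it. Between the GFP+ groups and GFP- cells, 2 relatives of Mycn were called higher. Myc rose by 0.95 in PAX3-FKHR GFP+ cells and by 1.82 in control GFP+ cells over GFP- cells (adjusted p = 0.0134 and 0.000555). Mycl, on 1 of its 3 probe sets, rose by 1.26 in PAX3-FKHR GFP+ cells and by 0.79 in control GFP+ cells (adjusted p = 0.000546 and 0.00975). As the mean of its 3 probe sets Mycl differed by 0.56 in PAX3-FKHR GFP+ cells, still called, and by 0.34 in control GFP+ cells, not called (adjusted p = 0.0678); the control call was also lost with the local pooled error test (adjusted p = 0.210) and the replicate block on the 6 arrays (0.0509). The Myc call in PAX3-FKHR GFP+ cells was lost without PAX3-FKHR GFP+ replicate 2 or 3 or GFP- replicate 1 or 2, at adjusted p of 0.0518 to 0.0685. None of the 12 genes raised by Myc proteins was called in any of the 3 comparisons. A replicate block that takes in GFP- arrays, here and below, had no pairing to rest on.

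Cnrip1, which binds the tail of the Cnr1 receptor, rose on 1 of its 2 probe sets, by 0.89 in PAX3-FKHR GFP+ cells and by 1.06 in control GFP+ cells over GFP- cells (adjusted p = 0.0101 and 0.00532). The call in PAX3-FKHR GFP+ cells was lost without PAX3-FKHR GFP+ replicate 2, at an adjusted p of 0.0527, and with the mean of both probe sets, at 0.50, just under the threshold. In control GFP+ cells that mean was 0.52, still called, and the call was lost with the replicate block on the 6 arrays (adjusted p = 0.0509). Prkg1, the kinase activated downstream of nitric oxide by cyclic GMP, rose by 2.23 in PAX3-FKHR GFP+ cells and by 1.25 in control GFP+ cells (adjusted p = 0.000437 and 0.0142). The Prkg1 call in control GFP+ cells was lost without control GFP+ replicate 1 or GFP- replicate 1, at adjusted p of 0.0502 and 0.0540, and with the replicate block on the 6 arrays, at 0.0525. Dmd, the dystrophin that anchors Nos1 in muscle fibres, had a log2 fold change of -1.17 in control GFP+ over GFP- cells (adjusted p = 0.0121), and it fell on 1 of its 4 probe sets; as the mean of the 4 it was at -0.54, still called.

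Of 29 further genes tied to PAX3-FOXO1 in human tumours or in cells given the fusion, 28 were measured. In PAX3-FKHR GFP+ over control GFP+ cells 2 of them were called higher, beside 0.61% of all genes, and none lower. The signalling factor Fgf8 read 5.60, 5.64 and 5.99 in PAX3-FKHR GFP+ cells, 4.60, 4.65 and 4.55 in control GFP+ cells, and 5.18, 5.58 and 5.41 in GFP- cells. It was 1.14 higher in PAX3-FKHR GFP+ than in control GFP+ cells (SE 0.15, adjusted p = 0.00712). Against GFP- cells Fgf8 was called lower in control GFP+ cells (-0.79, adjusted p = 0.0112). In PAX3-FKHR GFP+ cells it was not called against GFP- cells (0.35, adjusted p = 0.209). The growth factor Bmp5, on 1 of its 3 probe sets, read 8.39, 8.28 and 8.08 in PAX3-FKHR GFP+ cells, 6.76, 7.11 and 6.61 in control GFP+ cells, and 6.49, 6.82 and 7.49 in GFP- cells. Its rise of 1.43 over control GFP+ cells (adjusted p = 0.0331) was lost without any single one of PAX3-FKHR GFP+ replicates 1, 2 and 3 and control GFP+ replicates 1 and 3, at adjusted p of 0.0902 to 0.152, and with the replicate block on all 9 arrays, at 0.0715. As the mean of its 3 probe sets it was 0.84, still called. The median of the 28 genes was 0.07. Fgfr4 had the largest difference, 1.69 (95% interval 0.55 to 2.82), but was not called (adjusted p = 0.372). The intervals of Myod1 (1.16), Myog (1.04), Grem1 (0.95), Myf5 (0.93) and Skp2 (0.59) also lay above 0. Those of Cxcr4 (-0.86) and Podxl2 (-0.69) lay below it, and none of these genes was called. Control GFP+ replicate 3 was low for Myod1, at 6.38 beside 8.29 and 8.37, and for Myog, at 7.45 beside 8.98 and 9.17. In PAX3-FKHR GFP+ cells Myod1 read 8.57, 9.24 and 8.72, and Myog 9.76, 10.09 and 8.88. The part of that control array in the Myod1 and Myog differences was not tested. Between control GFP+ and GFP- cells, 5 of the 28 rose and 3 fell, beside 2.79% of all genes called higher and 1.93% lower. The muscle regulators Myf5 (5.74) and Myog (3.90) and the receptors Met (4.50) and Cxcr4 (2.78) had the smallest adjusted p. Between PAX3-FKHR GFP+ and GFP- cells, 8 rose and 2 fell, beside 3.9% of all genes called higher and 2.79% lower. The 8 were led by Myf5 (6.67), Met (4.26), Myog (4.95) and Myod1 (4.49). Met and Myod1 were called on 1 of 2 probe sets there, and as the mean of both they were at 2.47 and 2.32, still called. Met in control GFP+ over GFP- cells, called on both, was at 2.71 by that mean. Myod1 was also called higher in control GFP+ than in GFP- cells (3.33), as were Myf5, Met and Myog. This Myod1 call too was on 1 of 2 probe sets, and over all alternatives its value ran from 1.72 to 3.98. Myf5 and Met are also markers of limb muscle progenitors. Between PAX3-FKHR GFP+ and control GFP+ cells Met differed by -0.24 (adjusted p = 0.841). Fgf8 is also a marker of limb ectoderm, of which it was the 1 marker of 10 called higher in PAX3-FKHR GFP+ than in control GFP+ cells. The mean of those 10 markers ranged over 5.38 to 5.83 in PAX3-FKHR GFP+, 5.06 to 5.62 in control GFP+ and 5.81 to 6.87 in GFP- cells, and its part in the Fgf8 value was not tested.

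The genes whose pattern over the 9 arrays was most like that of Pipox were AU015791 (Pearson r = 0.99), Pcp4 (0.99), a calmodulin-binding peptide, and Cpm (0.99), carboxypeptidase M. All 3 were called higher in PAX3-FKHR GFP+ than in control GFP+ cells, by 1.31, 2.31 and 1.87. They were picked for likeness to Pipox on these same arrays, so that these calls are no separate result. Those most like Nell1 were Dnal1 (r = 0.99), an axonemal dynein light chain, Neb (0.96), the thin-filament protein nebulin, and Sgpp2 (0.96), a sphingosine-1-phosphate phosphatase, and none of these was called in that comparison. Of 18192 genes, 156 had an r over 0.9 with Pipox and 88 with Nell1. Between the members themselves, r was 0.86 for Pipox and Nell1 and 0.69 for Nell1 and Cnr1. These values describe the 9 arrays, which share their groups and their normalisation.

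The labels were checked on Pax3 and on cell type markers. The brightest Pax3 probe set read 6.83 to 7.33 in PAX3-FKHR GFP+, 8.94 to 10.22 in control GFP+ and 4.77 to 5.17 in GFP- cells. All 9 measured markers of limb muscle progenitors were called higher in both GFP+ groups than in GFP- cells, and Pax7 was also higher in PAX3-FKHR GFP+ than in control GFP+ cells, by 1.45 (adjusted p = 0.0281). Limb mesenchyme markers were lower than in GFP- cells, 10 of 10 in PAX3-FKHR GFP+ and 9 of 10 in control GFP+ cells. Of 10 neuron markers, 6 were higher in PAX3-FKHR GFP+ and 4 in control GFP+ than in GFP- cells, and none differed by the test between the GFP+ groups. Their mean ranged over 5.90 to 6.66 in PAX3-FKHR GFP+, 5.97 to 6.13 in control GFP+ and 4.83 to 4.89 in GFP- cells, so that it moved with Pipox and Nell1 in the comparisons with GFP- cells. Neural crest markers did likewise: of 6, 3 were called higher and 1 lower in each GFP+ group than in GFP- cells, with median log2 fold changes of 1.07 in PAX3-FKHR GFP+ and 1.49 in control GFP+ cells. Their mean ranged over 7.51 to 8.18 in PAX3-FKHR GFP+, 7.16 to 8.28 in control GFP+ and 6.51 to 6.89 in GFP- cells. Whether these cells took part in those differences was not tested.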

How the data were processed

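The deposited values are log2 values per probe set, which the authors made with RMA (background correction, quantile normalisation and summary over probes; its version is not given in the sources used here) from RNA that had been through two-cycle amplification. They were used as deposited, for the 9 forelimb arrays, after 64 array control probe sets had been left out. Detection calls are not used here, and the number of arrays, 3 per group, limits the precision. Probe sets with exactly 1 symbol in the platform annotation were assigned to genes; the main probe set of a gene was the one with the highest mean over 9 arrays.

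The main fit was a single model over the 9 arrays in limma 3.58.1 (R 4.3.3, intensity trend), with no term for replicate number. P-values were adjusted by Benjamini-Hochberg over 45037 probe sets. Calls needed an adjusted p under 0.05 and a log2 fold change of at least 0.5. Error estimates are pooled over the groups. Members and lists were chosen with earlier results of these data known. Named were all 7 members, up to 4 called genes per list and comparison by adjusted p, and the 3 genes most like each called member; Pax3 and cell type markers served as a check. The scripts were tested on simulated data. The check of replicate numbers gave correlations of same-numbered deviations of 0.16, 0.47 and 0.29 between PAX3-FKHR GFP+ and control GFP+ arrays. These numbers were therefore taken to pair those arrays in the replicate block, from the data and not from the labels. With GFP- arrays the correlations ranged from -0.29 to 0.15, and no pairing was taken. The replicate block was still run there as an alternative, without a pairing to rest on. Alternatives included array weights, quantile normalisation, the replicate block, the local pooled error test (the test of the study, rebuilt here), other filters and thresholds, and leaving out each array. Promoter windows and coordinates are from RefSeq (GRCm38.p6), with a window for 6 of the 7 genes. Plots were drawn with matplotlib 3.10.9.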

Additional observations from a re-analysis of the deposited data

How the results depend on the processing

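Pipox was called higher in PAX3-FKHR GFP+ over control GFP+ cells under every alternative that measured it, at adjusted p of 2.0e-09 to 0.0133; a filter on a mean of at least 5 left out Pipox, Nell1 and Alk. In that comparison the number of members called was 2 with the replicate block on the 6 arrays (Pipox and Cnr1), 3 with that block and pair 3 left out, an alternative chosen after seeing the data, and 3 with the local pooled error test (Pipox, Nell1 and Cnr1 each time), and 1 to 2 when 1 array was left out. In control GFP+ against GFP- cells it was 1 with array weights (Pipox), 1 with only the 6 arrays compared (Nell1), 2 with the local pooled error test, and 0 to 1 when 1 array was left out. In PAX3-FKHR GFP+ against GFP- cells the local pooled error test added Cnr1 (1.03, adjusted p = 0.000694). The replicate block changed no other call of a member. Crym lost its call against control GFP+ cells with only the 6 arrays compared (adjusted p = 0.0655). Of 881 values of single genes, 826 kept direction and call, 27 lost the call, 12 gained it and 16 changed sign.

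The changes of sign were all in members that were not called. In PAX3-FKHR GFP+ against control GFP+ cells, Nos1 was at -0.049 with array weights, -0.053 with the local pooled error test, -0.092 with the block and pair 3 left out and -0.045 with the mean of its probe sets, and Abat at 0.15 with the local pooled error test and 0.072 with the block and pair 3 left out; leaving out 1 array gave -0.19 to 0.10 for Abat and -0.11 to 0.15 for Nos1. In control GFP+ against GFP- cells, Cnr1 was at 0.042 with the local pooled error test and Mycn at 0.017 with the mean of its probe sets, and leaving out 1 array gave -0.042 to 0.22 for Nos1 and -0.40 to 0.079 for Cnr1. In PAX3-FKHR GFP+ against GFP- cells, leaving out 1 array gave -0.050 to 0.24 for Abat and -0.034 to 0.075 for Mycn. The cause was not tested.

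Counts over all probe sets moved more. Set against control GFP+ cells, PAX3-FKHR GFP+ cells had 178 probe sets higher and 64 lower, against 337 and 151 with array weights, 281 and 95 with the block on the 6 arrays, 443 and 141 with pair 3 also left out, 82 and 22 with only the 6 arrays, 268 and 92 with the local pooled error test, and 73 to 133 and 25 to 59 with 1 array left out. For control GFP+ against GFP- cells, 827 and 1804 were called, against 1254 and 2488 with array weights, 394 and 1223 with the block on the 6 arrays, 368 and 1101 at a log2 fold change of at least 1, 511 and 422 over gene means, and 472 to 905 and 1070 to 1882 with 1 array left out. For PAX3-FKHR GFP+ against GFP- cells, 1261 and 1800 were called, against 642 and 1005 at a log2 fold change of at least 1, 670 and 537 over gene means, and 742 to 1143 and 838 to 1547 with 1 array left out.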
